A study of Mus musculus with 4 samples.

Results

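The nuclei described here are 3459 cardiomyocyte (CM) nuclei of the mouse right ventricle (RV) that were chosen by their UMIs of 4 genes of the atrial CM, among 16604 CM nuclei and 48428 nuclei kept in all. A UMI is a molecular tag that counts 1 captured RNA molecule. A barcode was kept if it had 200 or more genes and less than 10% of its UMIs from mitochondrial genes, counted as a CM nucleus where Ryr2 and Cacna1c together made up at least 1% of its UMIs, and chosen where Myl7, Myl4, Sln and Kcnj3 together had at least 4 UMIs. Ryr2 encodes the calcium release channel of the CM sarcoplasmic reticulum and Cacna1c the main L-type calcium channel. The label "atrial-like" describes them only in part. Of 17 atrial identity genes outside the 4, 11 were higher in them than in other CM nuclei and none was lower, beside 8.39% and 9.04% of all genes tested. However, 311 of the 3459 nuclei, none of them in 1 sham library, had at least 5 UMIs of Fgf12 and Ryr3 together. With such nuclei left out at full depth, only Nr2f2, Chrm2, Angpt1 and Cacna1d of the 11 were still higher by the same test. With them left out and the other nuclei thinned at random to 2000 UMIs and chosen anew, Mybphl, Dkk3 and Tbx5 were among the genes called higher. Of the 4 genes' UMIs, 91.2% were Kcnj3, 68.9% of the 3459 nuclei had no UMI of Myl7, Myl4 or Sln, which in sparse counts does not show that they lack these transcripts, and ventricular transcripts were present in all 4 libraries. The 3459 nuclei are therefore called Kcnj3-rich nuclei below, although a few of them had no UMI of Kcnj3.

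The nuclei came from RVs of wild-type C57/BL6J mice at postnatal day 21 (P21). Surgery was at P7 and was either a sham operation or a puncture from the abdominal aorta into the inferior vena cava, which sends arterial blood into the veins and loads the RV with volume (RVVO). Each group had 2 libraries, referred to as sham 1, sham 2, RVVO 1 and RVVO 2, made from frozen tissue with the 10x 3′ v3 chemistry. The sources used here do not state how many mice made up a library. A p-value for RVVO against sham thus measures the spread between libraries, which may be partly technical. Tests that compare classes of nuclei had library as a term. Their p-values measure how far the difference between the classes varied from library to library. The libraries held 15568, 15430, 8700 and 13392 barcodes and 55516713, 51010039, 64739206 and 63422784 UMIs in this order, which is kept below. Sex moved with the group: Xist, the RNA of the inactive X, had 1621 and 1453 UMIs per 1000000 UMIs of the class (CPM) in the Kcnj3-rich nuclei of the sham libraries and 1.07 and 0.761 CPM in those of the RVVO libraries, while the Y-linked Uty had 0.107 and 0 CPM against 364 and 365 CPM. The effects of sex and of RVVO cannot be told apart.

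Atrial CMs differ from ventricular CMs in the light chains of their myosin, in their electrical channels and in their secretion. Myl7 and Myl4 encode the atrial regulatory and essential myosin light chains, Sln encodes sarcolipin, an inhibitor of the calcium pump of the sarcoplasmic reticulum, and Nppa encodes atrial natriuretic peptide, a hormone released on stretch. Kcnj3 encodes a subunit of the potassium channel that acetylcholine opens through the muscarinic receptor Chrm2, by which the vagus nerve slows the atria and the sinus node. Ventricular CMs use Myl2 and Myl3 in place of the atrial light chains and express the transcription factor Irx4. A dissected RV can carry a rim of right atrium, so that the number of nuclei with atrial transcripts can differ between libraries with how much of it was taken along.

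Kcnj3 supplied nearly all of the counts on which the nuclei were selected. It held 99.4% of the 4 genes' UMIs in sham 1, 88.9% in sham 2, 96.4% in RVVO 1 and 78.0% in RVVO 2. Kcnj3 alone reached the limit of 4 UMIs in 847 of 853, 563 of 650, 1137 of 1187 and 542 of 769 nuclei, 89.3% of all. At least 1 UMI of Kcnj3 was found in 853, 646, 1187 and 748 nuclei. No UMI of Myl7, Myl4 or Sln was found in 824, 370, 973 and 216 of the Kcnj3-rich nuclei, 68.9% of all. Without Kcnj3, the other 3 genes reached 4 UMIs in 0, 52, 20 and 133 nuclei. The 4 libraries thus differed most in the 3 genes other than Kcnj3, with RVVO 2 highest and sham 1 lowest. All of this describes the choice itself and was not tested.

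**Figure D1:**
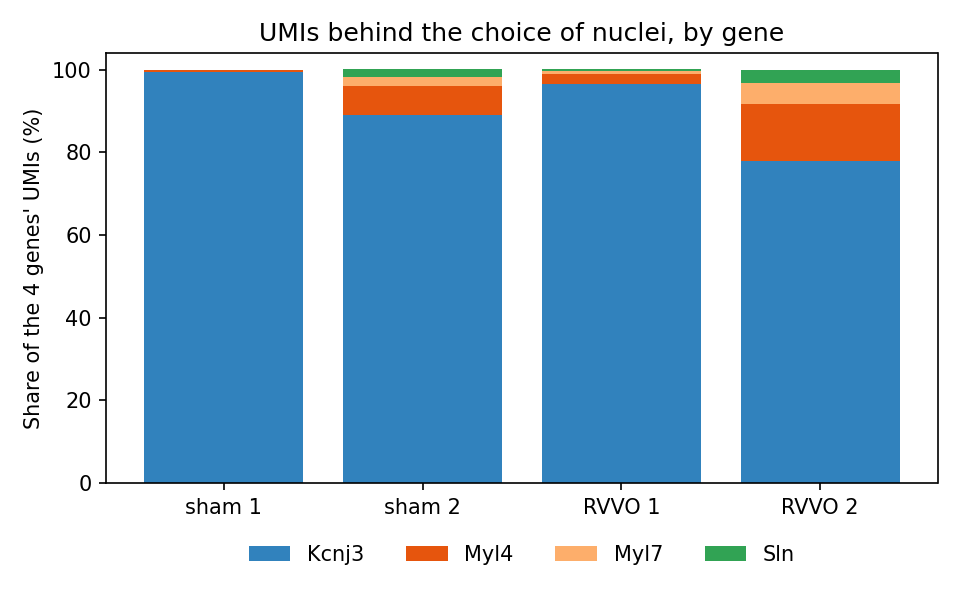
The bars show, for each library on the horizontal axis, what percentage of the UMIs of the 4 genes in the chosen nuclei came from each gene. Kcnj3 makes up between 78.0% (RVVO 2) and 99.4% (sham 1), and Myl4 is the next, with 13.7% in RVVO 2.

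The limit of 4 UMIs lay within a continuous range. The median count over the 4 genes was 6 UMIs in sham 1, sham 2 and RVVO 2 and 7 UMIs in RVVO 1. Just inside the limit, 209, 173, 233 and 240 CM nuclei had 4 UMIs, with medians of 6355, 7035, 9353 and 7028 UMIs over all genes. Just outside it, 321, 246, 339 and 412 CM nuclei had 3 UMIs, with medians of 6288, 6210, 8854 and 5966 UMIs. Nuclei with 3 UMIs of these genes were the more numerous in each library. Around the CM limit of 1%, 9, 4, 15 and 18 Kcnj3-rich nuclei lay between 1% and 1.1%, and 9, 4, 3 and 19 barcodes with at least 4 UMIs lay just under it, from 0.9%. Of the barcode sequences of the Kcnj3-rich nuclei, 1 was shared by sham 1 and RVVO 1 and 1 by the RVVO libraries.

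The Kcnj3-rich nuclei were deep nuclei. Their median was 8148, 8153, 11784 and 7203 UMIs, against 4116, 4310, 7448 and 4647 UMIs in the other CM nuclei. They also passed a fixed limit for RNA of other cell types more often: at least 3 UMIs of a marker list for endothelial cells, fibroblasts, macrophages, mural cells or the epicardium were found in 80.2%, 67.7%, 87.2% and 77.9% of them, against 57.4%, 51.7%, 74.4% and 66.3% of other CM nuclei. A deeper nucleus reaches such a limit more easily. The summed fibroblast markers were at 295, 250, 398 and 484 CPM against 351, 311, 380 and 545 CPM in other CM nuclei. For endothelial markers the sums were 596, 327, 805 and 560 CPM against 661, 377, 555 and 393 CPM. Macrophage markers were at 233, 98.5, 432 and 398 CPM against 155, 93.5, 240 and 200 CPM. The doublet caller Scrublet marked 18.8%, 19.4%, 11.3% and 21.2% of them, against 20.9%, 17.2%, 12.9% and 15.7% of other CM nuclei, so that marked barcodes were not more common in every library. Counts are also given below with each nucleus thinned to 2000 UMIs and with mixed barcodes left out.

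Transcripts of the atrial light chains and of Nppa were also found in nuclei that should lack them. In endothelial nuclei Myl7 was at 0.617, 34.4, 8.47 and 48.0 CPM. The Kcnj3-rich nuclei had 0.214, 22.0, 3.91 and 45.9 CPM of Myl7, or 0.347, 0.640, 0.462 and 0.957 times the endothelial level. Their Nppa was at 2.57, 60.9, 15.1 and 219 CPM, against the endothelial 7.90, 102, 34.1 and 239 CPM. The Kcnj3-rich nuclei were deeper than endothelial nuclei. The erythroid markers, haemoglobin RNA from red blood cells, were at 0.243, 0.224, 0.182 and 0.342 times the endothelial level in the Kcnj3-rich nuclei. Whether free RNA alone accounts for the Myl7 and Nppa of these nuclei was not tested. Per nucleus, the mean of Myl7 was 0.00234, 0.215, 0.0708 and 0.471 UMIs in the Kcnj3-rich nuclei and 0.00198, 0.0927, 0.0448 and 0.201 UMIs in endothelial nuclei. Myl4 was at 3.53, 66.8, 13 and 124 CPM in the Kcnj3-rich nuclei and 5.61, 42.1, 14.0 and 73.4 CPM in endothelial nuclei, and thus above the endothelial CPM in sham 2 and RVVO 2 but not in sham 1 and RVVO 1. Sln was at 0.107, 16.7, 1.63 and 29.2 CPM against 0.0561, 11.8, 1.89 and 23.2 CPM. Kcnj3 itself was at 678, 844, 490 and 705 CPM, against 173, 113, 117 and 85.9 CPM in other CM nuclei and 42.3, 33.9, 49.8 and 39.3 CPM in endothelial nuclei. At least 4 UMIs of the 4 genes were found in 0.558%, 0.371%, 1.1% and 2.36% of endothelial nuclei, whose medians were 2322, 2050, 3542 and 2929 UMIs.

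Ventricular transcripts were present in all 4 libraries. Fhl2, a LIM protein of the CM, was at 5611, 4976, 4536 and 3435 CPM in the Kcnj3-rich nuclei, beside 5546, 5258, 4828 and 4101 CPM in other CM nuclei and 302 to 474 CPM in endothelial nuclei. Irx4 was at 10.6, 7.86, 10.3 and 10.1 CPM, against 14.0, 13.3, 10.7 and 15.0 CPM in other CM nuclei and 2.34 to 4.54 CPM in endothelial nuclei. Myl2 was at 1171, 877, 875 and 1142 CPM, with 1494 to 2444 CPM in endothelial nuclei. Kcnip2, the potassium channel subunit of the fast outward current, was, like Fhl2 and Irx4, above endothelial nuclei and was at 158, 191, 125 and 135 CPM in Kcnj3-rich nuclei against 18.6 to 23.4 CPM in endothelial nuclei.

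**Figure D2:**
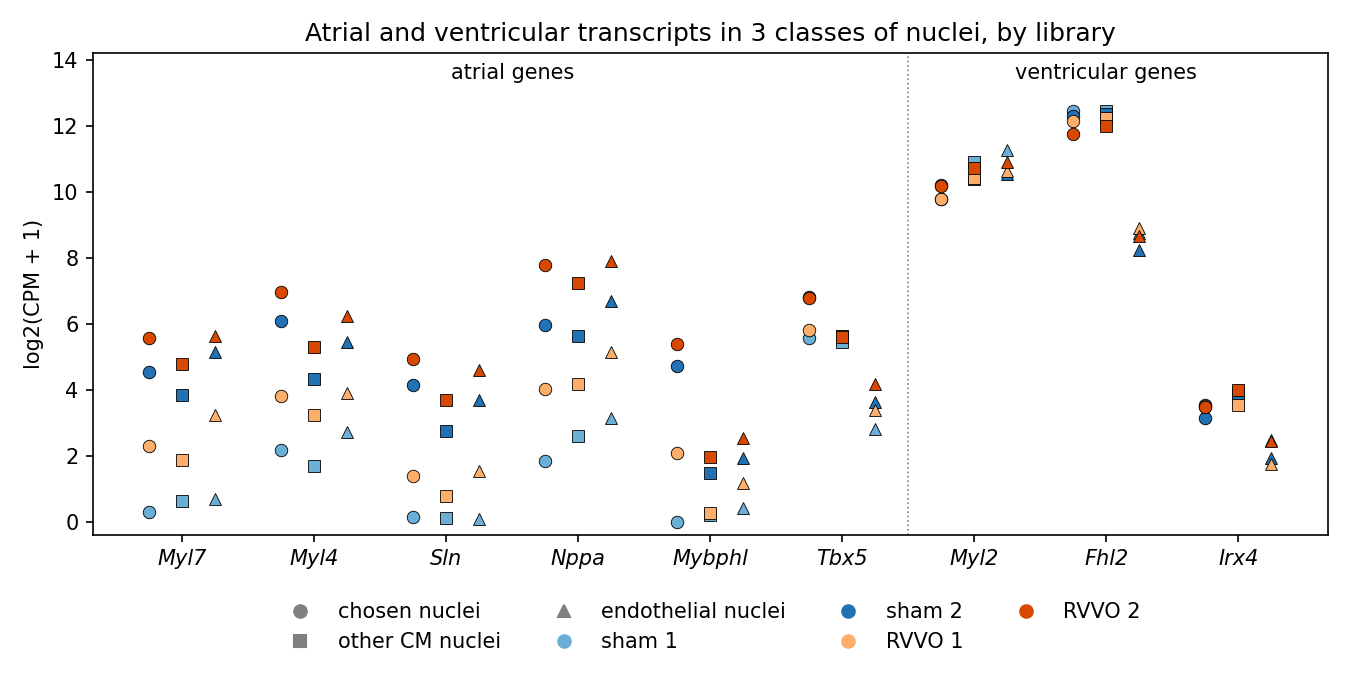
Each point is 1 library's level of a gene, as log2(CPM + 1) on the vertical axis, in the chosen nuclei (circles), other CM nuclei (squares) and endothelial nuclei (triangles). Myl7 and Nppa in the chosen nuclei lie under the endothelial points of the same library, whose nuclei were shallower, Fhl2 lies far above them in all 4 libraries, and Mybphl stands out in sham 2 and RVVO 2.

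A minority of the nuclei carried a fuller set of atrial transcripts. It was found through Fgf12, whose protein binds the cardiac sodium channel, and Ryr3, a relative of Ryr2, which both were picked after the values had been seen, so that no test was made. At least 5 UMIs of both genes together were found in 0 of 853, 103 of 650, 27 of 1187 and 181 of 769 Kcnj3-rich nuclei, 311 in all. The counts were split: 833, 500, 1098 and 545 nuclei had no UMI of Fgf12 or Ryr3, 20, 47, 62 and 43 had 1 to 4, 0, 21, 6 and 40 had 5 to 9, and 0, 82, 21 and 141 had 10 or more. Nuclei with such counts were also found among other CM nuclei (4, 12, 2 and 14) and under the CM limit (7, 18, 12 and 38), and 0.108%, 0.130%, 0.276% and 0.631% of endothelial nuclei reached them.

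**Figure D3:**
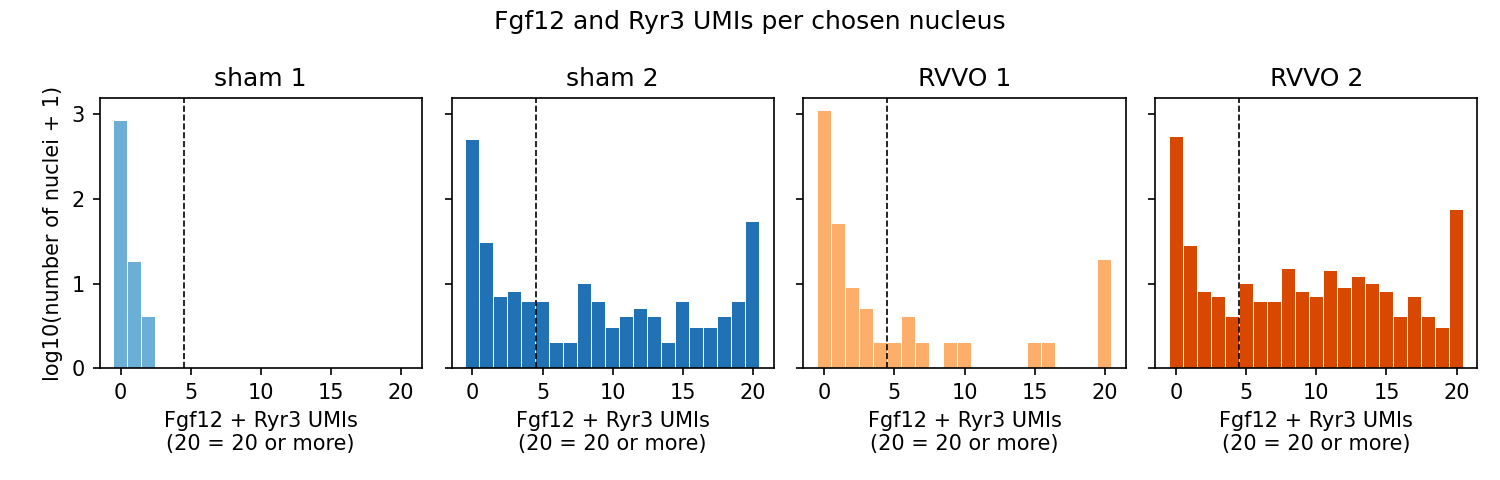
The histograms give the number of chosen nuclei in each library, as log10(number + 1), by their UMIs of Fgf12 and Ryr3 (20 stands for 20 or more, and the dashed line marks the limit of 5). Sham 1 has no nucleus past the line, whereas 82 nuclei of sham 2, 21 of RVVO 1 and 141 of RVVO 2 have 10 or more.

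These 311 nuclei differed from the rest in genes that did not choose them. Mybphl, a myosin-binding protein of the atria, was at 191, 177 and 235 CPM in those of sham 2, RVVO 1 and RVVO 2, and at 3.03, 0.331 and 2.73 CPM in the remaining Kcnj3-rich nuclei of the same libraries. At least 2 UMIs of Mybphl were found in 135 of the 311 nuclei and in 6 of the other 3148. The transcription factor Tbx5 was at 444, 328 and 371 CPM against 67.3, 50.9 and 56.9 CPM. Pam, which amidates peptide hormones and is abundant in atrial granules, was at 4893, 3177 and 5146 CPM against 897, 811 and 1424 CPM. Nppa was at 231, 274 and 780 CPM, above the endothelial level in each of the 3 libraries. For Chrm2, the muscarinic receptor, the values were 2352, 2006 and 2239 CPM against 753, 677 and 644 CPM, and for Kcnj5, which forms the channel with Kcnj3, they were 112, 88.3 and 131 CPM against 45.0, 38.3 and 40.6 CPM. All of these atrial genes were thus higher in the 311 nuclei in each of the 3 libraries.

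The same nuclei had less of the ventricular genes. Fhl2 was at 1291, 2958 and 1544 CPM in them against 5471, 4562 and 3802 CPM in the rest. Kcnip2 was at 58.4, 99.7 and 70.1 CPM against 209, 126 and 148 CPM. Irx4 was at 5.31, 11.4 and 1.56 CPM against 8.21, 10.3 and 11.8 CPM, and was thus not lower in the 27 nuclei of RVVO 1. Among the 4 genes of the rule, they had Myl4 at 359, 288 and 440 CPM and Kcnj3 at 2675, 1946 and 2174 CPM, and 282 of the 311 had at least 2 of the 4 genes. Their median depth of 5549, 8735 and 5020 UMIs was not higher than that of all Kcnj3-rich nuclei of their library. At least 3 UMIs of a marker list of another cell type were found in 35.0%, 59.3% and 65.7% of them, and their summed macrophage markers were at 114, 672 and 544 CPM, against 96.3, 428 and 369 CPM in the rest. The 6 endocardial markers moved more, with sums of 574, 615 and 699 CPM against 137, 204 and 201 CPM. Tmem108 made up most of these sums in the 311 nuclei, with 453, 419 and 572 CPM against 66.4, 64.1 and 75.6 CPM, whereas Nfatc1 was at 38.5, 59.8 and 29.6 CPM against 27.8, 34.3 and 33.5 CPM. The part of other cells in these nuclei was not tested.

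Bmp10, a secreted factor of the right atrium, was found in 2, 0 and 45 nuclei of sham 2, RVVO 1 and RVVO 2. Most nuclei with Bmp10 were thus from RVVO 2. In RVVO 2, endothelial nuclei had 3.74 CPM of Bmp10 against 84.1 CPM in these nuclei.

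The libraries differed in their share of these nuclei. Counted over all CM nuclei, Kcnj3-rich or not, nuclei with at least 5 UMIs of Fgf12 and Ryr3 were 0.109% in sham 1 (4 of 3665, 95% exact binomial interval 0.0297 to 0.279), 2.94% in sham 2 (2.43 to 3.52), 0.842% in RVVO 1 (0.564 to 1.21) and 3.49% in RVVO 2 (3.03 to 4.01). In sham 1 this was close to the 0.108% of its endothelial nuclei. The intervals cover counting error only. The order of the libraries, from sham 1 through RVVO 1 and sham 2 to RVVO 2, was also that of Myl7, Myl4, Sln and Nppa in endothelial nuclei. Both groups thus held 1 library with few of them and 1 with many, and how much atrial tissue was taken along in dissection was not measured.

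At full depth, the share of Kcnj3-rich nuclei among CM nuclei had another order. It was 23.3% in sham 1 (95% exact binomial interval 21.9 to 24.7), 16.6% in sham 2 (15.5 to 17.8), 34.4% in RVVO 1 (32.9 to 36.1) and 13.8% in RVVO 2 (12.9 to 14.7). RVVO 1 and RVVO 2 lay on either side of both sham libraries, and the RVVO mean of 24.1% ± 14.6 (SD, n = 2) and the sham mean of 19.9% ± 4.71 (SD, n = 2) lay 4.17 percentage points apart (permutation test, exact and two-sided, p = 1). With 2 libraries against 2, this test cannot give a p below 0.3333. Of all kept barcodes, the share was 6.57%, 4.46%, 14.4% and 6.09%.

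The share moved with depth. Among CM nuclei with 2000 to 4000 UMIs, 7.66%, 7.64%, 5.20% and 6.90% were Kcnj3-rich, and among those with 12000 or more, 58.0%, 46.9%, 60.1% and 38.3% were. With each nucleus thinned to 2000 UMIs, which leaves out 579, 658, 61 and 243 shallower CM nuclei, the share was 3.60%, 3.89%, 2.93% and 3.57%, from 111, 127, 99 and 190 nuclei. RVVO was then lower than sham by a mean of 0.499 percentage points (exact permutation test, p = 0.3333, the smallest possible). The direction of the difference between the groups thus turned with depth, and the intervals of all 4 libraries overlapped after thinning. Endothelial nuclei reached the limit after thinning in 0.0913%, 0.0718%, 0.0419% and 0.918%. Of the thinned nuclei past the limit, 0, 77, 20 and 128 were Fgf12- and Ryr3-rich.

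**Figure D4:**
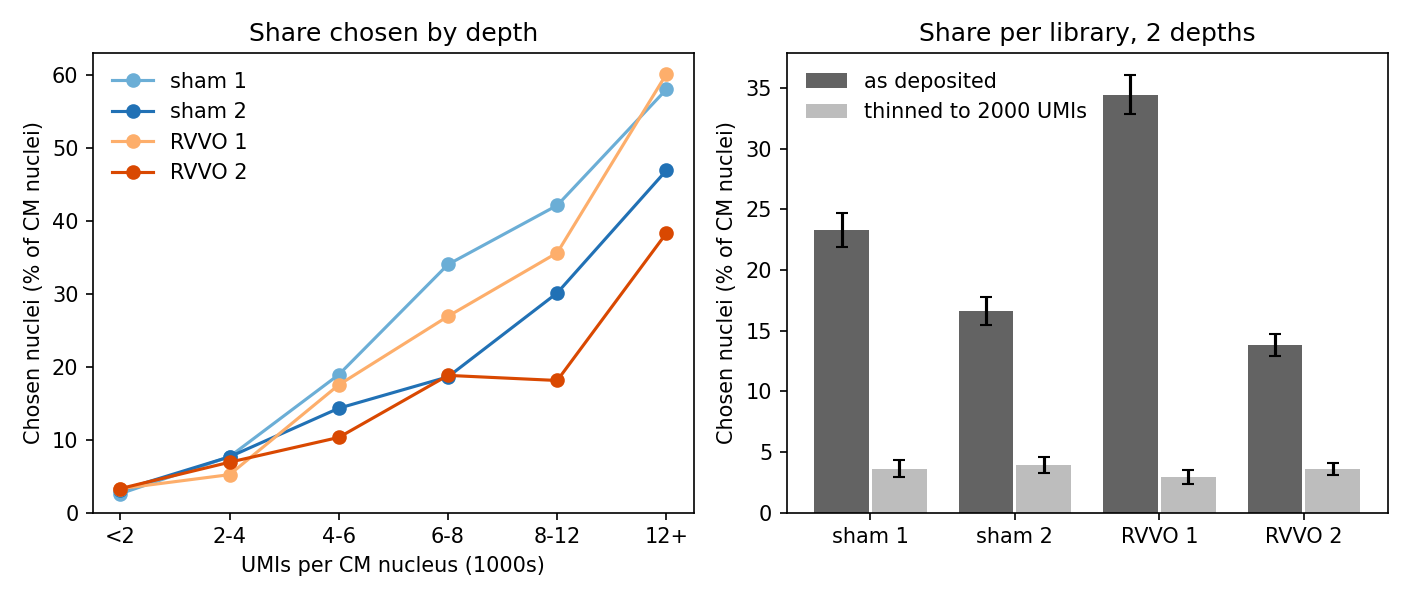
The left panel shows the percentage of CM nuclei that were chosen by their number of UMIs, 1 line per library. The right panel shows that percentage per library as deposited and thinned to 2000 UMIs, with 95% exact binomial intervals as bars. The share rises with depth in all 4 libraries, apart from a dip between 18.8% and 18.1% in RVVO 2, and the thinned shares lie between 2.93% and 3.89%.

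Compared with other CM nuclei of the same library, the Kcnj3-rich nuclei had 2686 of 15415 genes past an adjusted p of 0.05 (edgeR quasi-likelihood test with library as a term, Benjamini-Hochberg adjustment), 17.4% of the genes tested. Of these, 1293 were higher (8.39%) and 1393 lower (9.04%). The 4 genes of the rule and the 2 of the CM limit were left out of the test. The counts hold for nuclei that differ in depth. After thinning to 2000 UMIs, 432 of 12499 genes were called (3.46%), 280 higher (2.24%) and 152 lower (1.22%). Among the 2686 were 250 of these 432. Thinning also chose the Kcnj3-rich nuclei anew, and 111, 127, 99 and 190 nuclei passed the limit. Of those, 0, 77, 20 and 128 were rich in Fgf12 and Ryr3. Without mixed barcodes, 708 were called, 523 of them among the 2686. Without library as a term, 0 genes were called by edgeR (1668 had an unadjusted p under 0.05), and without RVVO 1 or RVVO 2, 1386 and 1284 were called.

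Most of the atrial genes outside the rule were higher in the Kcnj3-rich nuclei. Of 17 atrial identity genes, 11 rose and none fell, with a median log2 fold change of 0.657 against -0.001 over all genes. After thinning 14 of 16 rose, with a median of 2.212 against -0.077. The thinned nuclei were a new choice, however: 0 of 111, 77 of 127, 20 of 99 and 128 of 190 were rich in Fgf12 and Ryr3. At full depth these were 0 of 853, 103 of 650, 27 of 1187 and 181 of 769. At full depth without the Fgf12- and Ryr3-rich nuclei, only Nr2f2, Chrm2, Angpt1 and Cacna1d of the 11 were still called, as given below. Mybphl rose by 3.75 on the log2 scale (SE 0.227, adjusted p 4.86e-05 by edgeR), from 0, 25.3, 3.21 and 40.6 CPM against 0.139, 1.76, 0.208 and 2.85 CPM. It was thus higher in 3 of 4 libraries, and not in sham 1. Dkk3, a secreted protein of the Dickkopf family, rose by 2.22 (SE 0.328, adjusted p 0.00163) and was higher in 4 of 4 libraries. Bmp10 rose by 2.60 (SE 0.324, adjusted p 0.00147), with 0 UMIs in sham 1 and RVVO 1. Tbx5 rose by 0.66 (SE 0.175, adjusted p 0.0284) and Chrm2 by 0.48 (SE 0.103, adjusted p 0.0112), both in 4 of 4 libraries. Nppa had a log2 fold change of 0.18 (SE 0.141, adjusted p 0.424), and 2.25 after thinning.

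Several of these calls were lost at full depth once nuclei rich in Fgf12 and Ryr3 were left out of both the Kcnj3-rich and the other CM nuclei. Then 2295 genes were called, but Mybphl had a log2 fold change of 0.46 (adjusted p 0.424), Dkk3 0.40 (adjusted p 0.0591), Tbx5 0.21 (adjusted p 0.105) and Bmp10 -1.25 (adjusted p 0.222), and Nppa fell by 0.50 (adjusted p 0.00135), all by edgeR. Nr2f1 at 0.36 (adjusted p 0.169), Gja5 at 0.60 (adjusted p 0.197) and Sbk2 at 0.31 (adjusted p 0.626) also lost the call by edgeR. Of the 11 atrial genes that rose, those still higher by edgeR were Chrm2 at 0.27 (adjusted p 0.00821), Angpt1, a vessel growth factor, at 0.28 (adjusted p 0.0149), Nr2f2 at 0.42 (adjusted p 0.00663) and Cacna1d at 0.72 (adjusted p 0.0178). With the same nuclei left out of both classes and the others thinned to 2000 UMIs, which also chooses the Kcnj3-rich nuclei anew, 71 genes were called and Mybphl was at 4.24 (adjusted p 2.55e-05), Dkk3 at 3.06 (adjusted p 4.93e-06), Tbx5 at 1.23 (adjusted p 2.98e-05) and Nppa at 1.19 (adjusted p 0.00011), all higher by edgeR.

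Among the 12 genes that rose most under the rule for named genes (called, the same direction in 4 of 4 libraries and a mean of at least 20 CPM) were Tmem163 (3.07), Lrrc4c (2.86), Kcnh7 (2.39), Dkk3 (2.22), Grip1 (1.38), Tbc1d1 (1.26), Cacna1d and Plekha7 (both 1.22), Mrvi1 (1.18), Gng2 (1.15) and Fam49a (1.07), as log2 fold changes. Tmem163, a zinc transporter, was at 3.85, 36.6, 4.47 and 41.1 CPM against 1.32, 2.35, 1.77 and 3.25 CPM. Cacna1d, the L-type channel of the atria and the sinus node, was at 34.6, 87.9, 48.5 and 73.4 CPM against 23.5, 17.5, 27.7 and 29.0 CPM. In both the excess was largest in sham 2 and RVVO 2. After thinning, the log2 fold changes of these 11 genes were between 2.37 and 5.36. At full depth with nuclei rich in Fgf12 and Ryr3 left out of both classes all 11 were smaller, between 0.34 (Plekha7) and 1.29 (Lrrc4c), with Tmem163 at 1.18, and Kcnh7 (0.35, adjusted p 0.290 by edgeR) and Dkk3 were no longer called. Thinned without them, Kcnh7 (3.01) and Dkk3 were called, but Tbc1d1 (0.73, adjusted p 0.638), Gng2 (0.87, adjusted p 0.671) and Fam49a (0.62, adjusted p 0.737) were not. Fgf12 and Ryr3, named for their size after their values were seen, had log2 fold changes of 4.99 and 4.08, but were lower than in other CM nuclei in sham 1 (0.856 against 1.88 CPM and 1.61 against 2.78 CPM).

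Some other genes of the muscarinic list and of the nodal and conduction list were also higher. Of the 12 tested members of the muscarinic pathway and its potassium channel, 4 rose (Chrm2, Gnao1, Gnb1 and Rgs6) and none fell, with a median log2 fold change of 0.219, against 8.39% of all genes higher and 9.04% lower. Gnao1 and Gnb1 encode G protein subunits and Rgs6 a protein that ends the vagal signal. Kcnj5 had a log2 fold change of 0.22 (SE 0.0942, adjusted p 0.146). Of 12 nodal and conduction genes tested, 6 rose (among them Tbx18, Gjc1, Cpne5, Etv1 and Slit2), with a median of 0.390. The sum of the nodal and conduction list was 332, 261, 297 and 279 CPM, against 234, 162, 201 and 197 CPM in other CM nuclei. It was higher still in endothelial nuclei, at 496, 498, 532 and 518 CPM. The part of other cells in this rise was not tested. After thinning, 4 of 11 muscarinic genes rose, with Kcnj5 in place of Gnb1, and 3 of 10 nodal genes (among them Cpne5 and Etv1), against 2.24% of all genes. Of 21 ion channel genes tested, 4 rose (among them Cacna1d, Cacna1h and Kcnn3) and 2 fell (Kcnip2 and Hcn2), and of 17 calcium handling genes 3 rose (Cacna2d2, Itpr1 and Bin1) and 3 fell (Pln, Hrc and S100a1), beside 17.4% of all genes called in either direction.

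**Figure D5:**
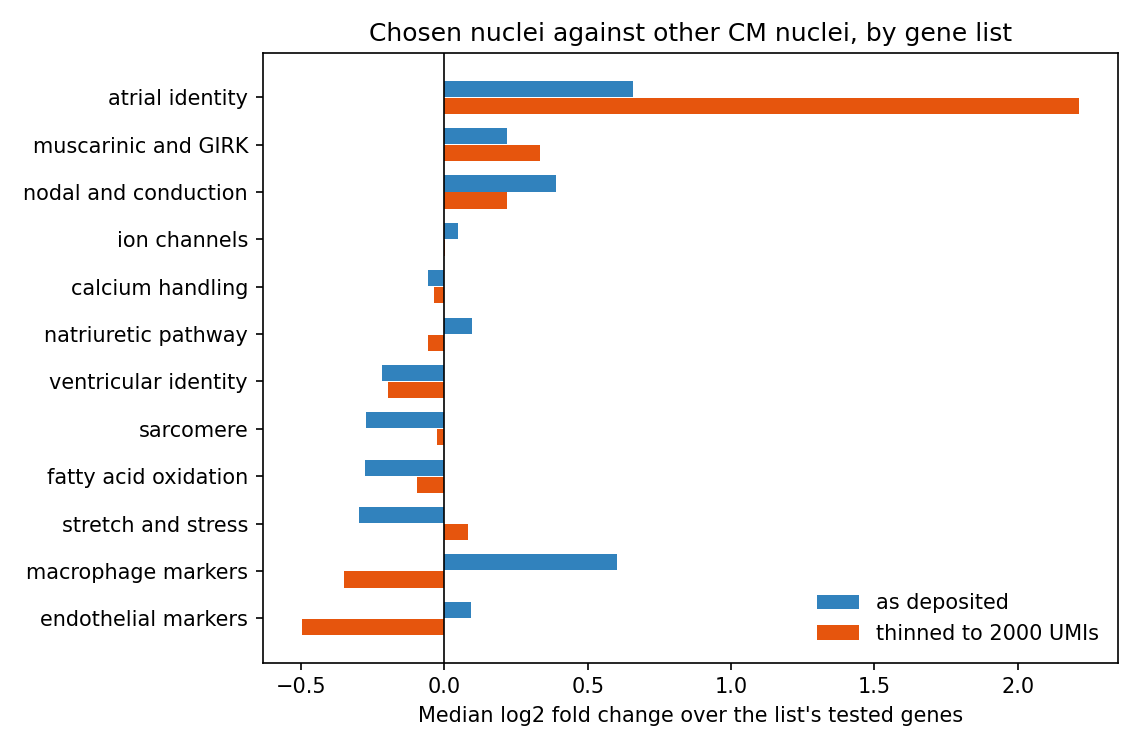
The bars give, for 12 gene lists, the median log2 fold change of the chosen nuclei against other CM nuclei over the list's tested genes, as deposited (blue) and after thinning to 2000 UMIs (orange). Thinning also chose the nuclei anew, with a larger share rich in Fgf12 and Ryr3 in sham 2, RVVO 1 and RVVO 2. The atrial identity list moves from 0.657 to 2.212 with thinning, whereas the macrophage list turns from 0.603 to -0.349 and the stretch list from -0.296 to 0.081.

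Ventricular, sarcomere and metabolic genes were lower in the Kcnj3-rich nuclei at full depth. Against 9.04% of all genes that were lower, 5 of 8 ventricular genes fell (Myl2, Myl3, Irx4, Kcnip2 and Pln), with Myl2 at -0.65 (SE 0.0425, adjusted p 4.88e-05) and Irx4 at -0.44 (SE 0.111, adjusted p 0.0225). Fhl2 had a log2 fold change of -0.13 (SE 0.053, adjusted p 0.112). Of 20 sarcomere genes, 12 fell, among them Myh6, Tnni3 and Tnnt2, and 1, Mybphl, rose. Of 14 genes of fatty acid oxidation, 10 fell, and of 12 stretch and stress genes 7 fell, among them Acta1, Xirp2 and Csrp3. After thinning, when 1.22% of all genes were lower, no fatty acid gene and no sarcomere gene was lower at the threshold, Ankrd1 was higher in the stretch list, and of the ventricular genes Kcnip2 (-0.79, adjusted p 0.00188) and Fhl2 (-0.65, adjusted p 0.00134) were lower.

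The 10 called genes that fell most among those with a mean of at least 20 CPM in other CM nuclei and the same direction in 4 of 4 libraries were Ankrd23 (-0.93), Hba-a1 and Hbb-bt (both -0.87), Ptgds (-0.86), Ndufb11 (-0.85), Ndufa1 and Hbb-bs (both -0.84), and Chchd2, Rps29 and Cox7a1 (each -0.83). They encode haemoglobin chains, a ribosomal protein, subunits of the respiratory chain and Chchd2, a regulator in the mitochondrion, next to Ankrd23, a muscle ankyrin repeat protein, and Ptgds, a prostaglandin synthase. Hbb-bs was at 107, 143, 336 and 138 CPM against 194, 257, 581 and 226 CPM in other CM nuclei and thus lower in 4 of 4 libraries. Haemoglobin RNA belongs to red blood cells, and the 4 erythroid markers together were at 764, 1102, 3466 and 682 CPM in endothelial nuclei. After thinning, Ankrd23 still fell (-1.56, adjusted p 0.032), and the other 9 had no call, with values between -0.85 and 0.20.

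Which markers of other cells were called changed with thinning. Besides depth, thinning changed which nuclei were chosen, and it left 12499 in place of 15415 genes to test. The part of each in the changed calls was not tested. Over all genes, 8.39% were higher and 9.04% lower at full depth, and 2.24% and 1.22% after thinning. Of 7 macrophage markers, 5 rose in the Kcnj3-rich nuclei (Csf1r, Mrc1, Cd163, F13a1 and Adgre1), and their summed level was 233, 98.5, 432 and 398 CPM against 155, 93.5, 240 and 200 CPM in other CM nuclei, none of the 7 at 0. After thinning none rose and F13a1 fell. Of 7 endothelial markers none passed the threshold at full depth, with sums of 596, 327, 805 and 560 CPM against 661, 377, 555 and 393 CPM, and Flt1, the vascular growth factor receptor, was the most abundant in each library. After thinning, Ptprb was called lower, and the median log2 fold change of the endothelial list was -0.498. Of 6 endocardial markers, Npr3 and Tmem108 rose and Cytl1 fell at full depth. Only Tmem108 was still called after thinning, again higher. Of 7 fibroblast markers 4 fell (Dcn, Col1a1, Col3a1 and Lum), and none of 6 after thinning, with a median of -0.045. Of 16 genes of dividing cells 5 rose (Mki67, Top2a, Cenpe, Kif23 and Tpx2), and none of 10 after thinning. The part of mixed barcodes in these values was not tested gene by gene.

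In the natriuretic pathway, Nppa had no call at full depth but a log2 fold change of 2.25 after thinning (adjusted p 1.6e-17 by edgeR). Nppb, the gene of B-type natriuretic peptide, fell by 0.73 (SE 0.152, adjusted p 0.0093) and was at 5.46, 12.9, 7.35 and 26.5 CPM against 12.9, 24.3, 13.8 and 28.5 CPM, lower in 4 of 4 libraries, but had a log2 fold change of 0.54 (adjusted p 0.621) after thinning. Corin, the protease that activates the atrial peptide, was at 1659, 2145, 1957 and 1952 CPM, beside 1487, 1974, 2032 and 1872 CPM in other CM nuclei. Pcsk6, which activates corin, rose by 0.45 (SE 0.118, adjusted p 0.0279), and Npr3, the receptor that clears the peptides, by 0.35 (SE 0.0826, adjusted p 0.017). Both were at a higher level in endothelial nuclei (138 to 235 CPM and 99.3 to 200 CPM), and both were negative after thinning (-0.78 and -0.16, adjusted p 0.263 and 0.95). Of 11 genes tested, 2 rose and 1 fell, beside 8.39% of all genes higher and 9.04% lower.

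Between RVVO and sham, the Kcnj3-rich nuclei differed at the threshold in 7 of 13880 genes, 0.0504% of those tested (edgeR, Benjamini-Hochberg adjustment), and 934 genes had an unadjusted p under 0.05. With DESeq2, 51 genes were called, 16 higher and 35 lower, and with no filter on low counts edgeR called 84. Of the 7, 4 were Y-linked (Eif2s3y, Kdm5d, Uty and Ddx3y) and 2 lie at the X inactivation centre (Xist and Tsix). The other was Snx17, which encodes a sorting nexin of endosomes and was at 8.03 and 8.02 CPM in sham and 92.8 and 112 CPM in RVVO, a log2 fold change of 3.55 (SE 0.172, adjusted p 0.00449). Snx17 (GRCm38 chromosome 5, 31193227 to 31199143, plus strand) overlaps Eif2b4 and Zfp513, and the sources used here do not state whether counting used strand. The same difference was found in other CM nuclei, with 10.8 and 9.82 against 102 and 124 CPM, and in endothelial nuclei, with 19.2 and 15.4 against 115 and 133 CPM.

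No gene of the atrial, ventricular or natriuretic lists passed the threshold between RVVO and sham, and 1 of 16, 2 of 8 and 2 of 11 had an unadjusted p under 0.05, beside 6.73% of all genes. Of the macrophage and endocardial markers, 4 of 7 and 3 of 5 had such a p by edgeR, and none passed the threshold. Their median log2 fold changes were 1.205 and 0.715. Nppa had a log2 fold change of 1.76 (SE 1.59, adjusted p 0.846 by edgeR), and its 2.57 and 60.9 CPM in sham overlapped the 15.1 and 219 CPM in RVVO. For Mybphl it was 0.65 (SE 1.73, adjusted p 0.952). Nppb was at 0.74 (SE 0.713, adjusted p 0.854). For Nppa and Mybphl, the libraries of a group differed more from each other than the group means did on the log scale, so that a change within these errors was not detectable.

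The effect of RVVO differed between Kcnj3-rich and other CM nuclei in 109 of 15415 genes, 0.707% (edgeR interaction term, Benjamini-Hochberg adjustment), 105 of them higher and 4 lower. The 8 named with the largest positive difference were Sh3tc2 (1.07), Rnf144a (1.04), Efr3b (1.0), Gimap6 (0.98), D8Ertd82e and Nostrin (both 0.97), and Meox2 and Adgrl4 (both 0.90), on the log2 scale. All 8 were at a higher level in endothelial nuclei, as was Adgrl4, an adhesion receptor of vessels, with 1182, 1237, 1137 and 1088 CPM there. In Kcnj3-rich nuclei Adgrl4 was at 164, 85.6, 254 and 193 CPM, and in other CM nuclei at 175, 97.3, 138 and 114 CPM, so that it was above other CM nuclei in both RVVO libraries and below in both sham libraries. Of 7 endothelial markers, 5 were called (Pecam1, Cdh5, Flt1, Egfl7 and Emcn). Without RVVO 1 or RVVO 2, 58 and 49 genes were called. The lower ones with a name were Sema3a (-0.70), Pde4d (-0.30) and Malat1 (-0.22). No gene of the atrial list was called, and 0 of 17 had an unadjusted p under 0.05, beside 11.5% of all genes. Without mixed barcodes, without Scrublet-marked barcodes and after thinning, 0 genes were called by edgeR in each, and 358, 1389 and 299 had an unadjusted p under 0.05. These settings took the calls away, but the named genes tested kept the sign of their difference: after thinning, the 8 higher ones lay between 0.35 (Nostrin) and 2.55 (D8Ertd82e), with Rnf144a at 2.10, and without Scrublet-marked barcodes between 0.84 (Meox2) and 1.35 (D8Ertd82e). Without mixed barcodes D8Ertd82e was not tested, and the other 7 lay between 0.10 (Meox2) and 1.66 (Nostrin).

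Kcnj3 lies on GRCm38 chromosome 2 (55435970 to 55598145, plus strand), where the GENCODE annotation also places Gm26794. Fgf12 lies on chromosome 16 (28160098 to 28753068, minus strand) and holds Mir690. Ryr3 lies on chromosome 2 (112631355 to 113217096, minus strand) and overlaps Aven. Mybphl lies on chromosome 3 (108364911 to 108380057, plus strand) with Gm12522, and Myl7 on chromosome 11 (5896637 to 5898782, minus strand) with no overlapping gene. Reads of overlapping genes may be shared between them in these counts.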

How the data were processed

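The matrices deposited by the authors hold UMI counts per gene and barcode, whole numbers with no scaling. The submitters' processing notes name Cell Ranger 3.0.1, STAR, Seurat 3.0.2 and GRCm38 (mm10), whereas the file headers name Cell Ranger 5.0.0. Whether introns or strand were used is not given in the sources at hand. Of 27998 gene identifiers, 27645 are in the GENCODE annotation of GRCm38 used for positions.

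Counts were summed per library and class of nuclei and tested with edgeR 4.0.16 in R 4.3.3 (quasi-likelihood test after TMM normalization and filterByExpr, adjusted p under 0.05). The library was the replicate. The tests against other CM nuclei and of RVVO against sham were tried on simulated counts, in which all libraries shared the same mean profile. The interaction test was not tried in this way. Levels are CPM of the sums, with no division by gene length because 3′ ends were counted. Endothelial nuclei had at least 3 UMIs of 7 endothelial markers and were under the CM limit. Doublets were marked with Scrublet in scanpy 1.11.5 at 0.8% per 1000 barcodes and left in, with their removal as an alternative. Nuclei were thinned at random to 2000 UMIs. Exact permutation tests used scipy 1.17.1.

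The nuclei, gene lists and tests were chosen with earlier results of these data known. Named genes were those of the rule, of the atrial, ventricular and natriuretic lists, called members of the other lists, the 12 called genes that rose most and the 10 that fell most against other CM nuclei, with a mean of at least 20 CPM and the same direction in 4 libraries, and up to 8 called genes in each direction for the other tests, without overlap between groups. Depth per library is given with the groups, and intervals cover counting error only. Alternatives were other limits on UMIs, genes and the CM share, removal of doublets, of mixed barcodes or of Fgf12- and Ryr3-rich nuclei, DESeq2 1.42.0, RLE normalization, no filter, other blocks and leaving out each library. Some items are not reported here.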

Additional observations from a re-analysis of the deposited data

Results flagged for a closer look

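The difference of the RVVO effect between Kcnj3-rich and other CM nuclei stood out because the interaction term itself was tested across all genes, and 109 genes passed the threshold by edgeR. The named genes were higher by log2 differences of 1.07 (Sh3tc2), 1.04 (Rnf144a), 1.0 (Efr3b), 0.98 (Gimap6), 0.97 (D8Ertd82e), 0.97 (Nostrin), 0.90 (Meox2) and 0.90 (Adgrl4), and lower by -0.70 (Sema3a), -0.30 (Pde4d) and -0.22 (Malat1). The 8 higher genes were more abundant in endothelial nuclei than in either class of CM nuclei. At least 3 UMIs of another cell type's markers were found in 80.2% and 67.7% of the Kcnj3-rich nuclei of the sham libraries and in 87.2% and 77.9% of those of the RVVO libraries, and in 57.4%, 51.7%, 74.4% and 66.3% of other CM nuclei, where the share differed more between the groups. Without such barcodes 0 genes were called, with 358 at an unadjusted p under 0.05, but the 7 of the higher genes that were still tested had differences between 0.10 (Meox2) and 1.66 (Nostrin). The part of these barcodes in the difference was not tested.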

How the results depend on the processing

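The share of Kcnj3-rich nuclei among CM nuclei was higher in RVVO by 4.17 percentage points, and the difference was negative with nuclei thinned to 2000 UMIs (-0.499), with the 4 genes at 0.1% of UMIs or more (-2.87), and with nuclei thinned and Fgf12- and Ryr3-rich nuclei left out (-0.814), an alternative chosen after seeing the data, as were those that left out Kcnj3 or these nuclei. Leaving out each library gave -6.17 (without RVVO 1) to 14.5. The cause was not tested beyond depth.

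Against other CM nuclei, 2686 genes were called, and 708 without mixed barcodes, 432 thinned, 71 thinned and without Fgf12- and Ryr3-rich nuclei, 1645 without Kcnj3 in the rule (sham 1 then had no such nucleus) and 1503 with DESeq2. Leaving out each library gave 1284 (without RVVO 2) to 2620, with 1386 without RVVO 1. Without library as a block 0 genes were called by edgeR, with 1668 at an unadjusted p under 0.05. Thinning turned Hbb-bt (0.20), Ndufb11 (0.11), Ndufa1 (0.03), Chchd2 (0.18), Rps29 (0.08), Cox7a1 (0.01), Nppb (0.54), Npr3 (-0.16) and Pcsk6 (-0.78). Thinning without Fgf12- and Ryr3-rich nuclei turned Hbb-bt (0.22), Ndufb11 (0.14), Ndufa1 (0.21), Chchd2 (0.14), Rps29 (0.23), Cox7a1 (0.16), Irx4 (0.48), Npr3 (-0.24), Pcsk6 (-0.34) and Myl2, to 0.0. At full depth, leaving out these nuclei from both classes turned Nppa (-0.50) and Bmp10 (-1.25). Leaving them out from the Kcnj3-rich nuclei alone, which lowers their genes on that side only, gave -0.53 (Nppa), -1.34 (Bmp10) and -0.84 (Ryr3). Other turns were Nppa with DESeq2 (-0.04) and between -0.05 and 0.32 when each library was left out, Pcsk6 without mixed barcodes (-0.55) and Nppb without Kcnj3 in the rule (0.43). The cause of these was not tested.

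Between RVVO and sham, 7 genes were called, 51 with DESeq2, 84 with no filter on low counts, 3 thinned and without Fgf12- and Ryr3-rich nuclei, and 7 to 10 when each library was left out. The interaction had 109 genes, 44 with DESeq2, 634 with no filter, 294 without Fgf12- and Ryr3-rich nuclei in both classes and 270 without those among the Kcnj3-rich nuclei, and 0 by edgeR with at least 8 UMIs, with 2 or more of the 4 genes, without Scrublet-marked barcodes, without mixed barcodes, with a CM limit of 2%, thinned, or thinned without these nuclei (965, 497, 1389, 358, 748, 299 and 306 at an unadjusted p under 0.05). Thinned, the 8 higher named genes lost their calls and kept their sign, with differences from 0.35 (Nostrin, 0.97 before) to 2.55 (D8Ertd82e, 0.97 before). Leaving out each library gave 49 (without RVVO 2) to 130, with 58 without RVVO 1. Sh3tc2 turned when thinned without Fgf12- and Ryr3-rich nuclei (-0.55), and Sema3a (0.07) and Pde4d (0.16) turned with 2 or more of the 4 genes.

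The libraries of the groups share only a number: the correlation of gene deviations between equally numbered libraries was 0.152, and with the replicate number as a block 7 genes were called between RVVO and sham. The limit of 5 Fgf12 and Ryr3 UMIs gave 311 nuclei, 3 UMIs gave 337 and 10 UMIs 244. Of the 875 values of named genes under an alternative against other CM nuclei, 695 kept direction and side of the threshold, 137 lost the call, 15 gained it and 28 turned, and for RVVO against sham 119 kept both and 6 lost the call. For the difference of the RVVO effect, 80 of 186 kept both, 103 lost the call and 3 turned. The share of Kcnj3-rich nuclei at full depth moved with depth per nucleus.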
